A study of Homo sapiens with 12 samples.

Results

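The mitosis and spindle checkpoint genes described here are 42 genes for entry into mitosis, the kinetochore, the spindle checkpoint, the mitotic kinases, anaphase and the spindle. They were chosen by gene symbol from the annotation of the arrays, with kinesins other than CENPE left out. Of the 42, 40 were on the smaller array type, out of 11939 genes measured there, and all 42 were on the larger one, out of 19740. NUF2 and ANLN were on the larger array alone. All 40 genes passed the filter on dim probe sets and were among the 9713 genes tested.

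RNA was measured on 12 Affymetrix arrays in 4 groups with 3 replicates each. DU145-DR cells are docetaxel-resistant cells selected from DU145, a human prostate cancer line, and 22Rv1-DR cells are docetaxel-resistant cells selected from 22Rv1, another human prostate cancer line. Resistant cells were under docetaxel until harvest, per the growth protocol, and the parental DU145 and 22Rv1 cells grew without the drug, all in RPMI with serum. Each comparison therefore joins resistance and the drug itself, which cannot be told apart. The sources used here do not give the dose, the length of exposure, or whether a resistant line is 1 clone or a pool. They do not say either that replicates are separate cultures, so p-values measure the spread between these arrays, which may be technical. In bulk RNA, fewer cells in mitosis and less RNA per cell cannot be told apart.

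Docetaxel binds microtubules and holds cells in mitosis. A kinetochore that is not attached to spindle microtubules recruits the checkpoint proteins MAD2, BUBR1 and BUB3, which hold back CDC20, the activator of the anaphase-promoting complex, so that cyclin B and securin are not degraded. Most genes of mitosis are transcribed late in the cell cycle, and their mRNA is low in resting cells. Their promoters are known for the cell cycle genes homology region, or CHR, which binds the MuvB complexes, and for CCAAT boxes, which bind NF-Y.

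Promoters are shown because most of the genes with a promoter found carry the letters of these elements. The 6 genes printed were picked by their changes, and whether the elements bear on the changes was not tested. RefSeq promoters on GRCh38.p14, from 250 bases before to 50 bases after a listed start, were found for 35 of the 42 genes. AURKA, FOXM1, BUB3, TTK, BIRC5, UBE2C and TPX2 were not matched. The letters TTTGAA of the CHR, on either strand, were in 29 of the 45 listed starts (64.4%), against 15.2% of 35116 promoters in the table, and CCAAT was in 77.8% of the starts, against 34.6%. Both were in 55.6% of the starts, against 5.9% of all promoters. These are descriptions of letters, and a gene with several starts counts several times. The 6 stretches below are the 200 bases before the start, 5′ to 3′, all on the minus strand, of 4 genes that were lower in DU145-DR cells (BUB1, TOP2A, MKI67 and DLGAP5), of ZW10, which was higher there, and of AURKB, which rose in 22Rv1-DR cells. Capitals mark TTTGAA and CCAAT or their reverse complements TTCAAA and ATTGG, and in MKI67 the last TTTGAA overlaps an ATTGG.
BUB1, chr2:110678064-110678263: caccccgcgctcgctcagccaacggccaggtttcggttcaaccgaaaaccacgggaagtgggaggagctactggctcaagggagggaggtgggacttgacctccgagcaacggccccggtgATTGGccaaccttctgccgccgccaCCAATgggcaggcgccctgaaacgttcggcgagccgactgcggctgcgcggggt
TOP2A, chr17:40417897-40418096: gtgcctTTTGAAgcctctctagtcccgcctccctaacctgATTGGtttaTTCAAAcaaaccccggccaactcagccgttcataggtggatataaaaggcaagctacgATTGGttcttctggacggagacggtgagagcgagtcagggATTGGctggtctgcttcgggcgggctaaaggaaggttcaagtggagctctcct
MKI67, chr10:128126424-128126623: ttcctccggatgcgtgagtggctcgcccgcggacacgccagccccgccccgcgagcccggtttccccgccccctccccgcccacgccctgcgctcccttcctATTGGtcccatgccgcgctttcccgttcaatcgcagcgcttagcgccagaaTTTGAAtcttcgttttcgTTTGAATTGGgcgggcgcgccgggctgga
DLGAP5, chr14:55191586-55191785: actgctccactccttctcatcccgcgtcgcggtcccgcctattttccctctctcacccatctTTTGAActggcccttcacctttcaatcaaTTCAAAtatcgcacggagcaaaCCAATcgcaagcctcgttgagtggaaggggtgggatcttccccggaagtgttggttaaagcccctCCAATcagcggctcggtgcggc
ZW10, chr11:113773693-113773892: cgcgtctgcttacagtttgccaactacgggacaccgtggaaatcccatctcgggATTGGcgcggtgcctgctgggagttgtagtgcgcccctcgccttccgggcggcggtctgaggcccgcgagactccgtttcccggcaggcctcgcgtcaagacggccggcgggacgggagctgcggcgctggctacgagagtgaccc
AURKB, chr17:8210226-8210425: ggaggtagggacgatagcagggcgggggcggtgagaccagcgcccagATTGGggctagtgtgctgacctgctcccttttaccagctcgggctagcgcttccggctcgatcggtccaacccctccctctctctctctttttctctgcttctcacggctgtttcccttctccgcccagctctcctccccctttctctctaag
The stretches of TOP2A, MKI67 and DLGAP5 each held 2 TTTGAA elements, and those of BUB1, ZW10 and AURKB held 0. A TTTGAA of ZW10 lies farther upstream, at position -224 relative to its start. AURKB has 2 listed starts, and the stretch of only 1 is shown. AURKB had 1 CCAAT, as did ZW10, against 2 in BUB1, MKI67 and DLGAP5 and 3 in TOP2A.

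The smaller array type, with 22215 probe sets, held replicates 1 and 2 (8 arrays), and the larger, with 54613, held replicate 3 (4 arrays). Levels below are deposited intensities on a linear scale, and a difference is given as log2 of the intensity plus 16. The DU145-DR and DU145 arrays of the 8-array table had their 5th percentile at 35.8 to 38.6, above that of the 22Rv1-DR and 22Rv1 arrays (11.5 to 12.3), so levels were not compared between lines or tables. KRT8, KRT18 and EPCAM, markers of epithelium, were above the array median in all 4 groups, and the prostate markers KLK3, KLK2 and HOXB13 only in 22Rv1-DR and 22Rv1. Of 9 fibroblast markers, FBLN1 was above the median in DU145-DR, LUM in 22Rv1-DR and 0 in the parental groups, and none of the 6 leukocyte or 5 endothelial markers measured was above it in any group. The array of DU145-DR replicate 1 stood apart for the mitosis genes. All 40 were lower on it than on DU145-DR replicate 2, as were 62.4% of all 9713 genes. The median difference was -0.98 log2, against -0.16 over all genes. In the DU145 group, 37 of the 40 were also lower on replicate 1 than on replicate 2 (92.5%, against 66.6% of all genes). Between the DU145 arrays the same median difference was -0.30 for the mitosis genes and -0.19 over all genes. Within 22Rv1-DR and 22Rv1 it was 0.08 and 0.07.

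In DU145-DR cells 3 of the 40 mitosis genes fell and 0 rose relative to DU145 cells. Changed genes are those with a limma adjusted p under 0.05 in the fit of the 8 arrays, where the adjustment, by Benjamini and Hochberg, runs over the 9713 tested genes. The 3 genes that fell were BUB1, a kinase of the spindle checkpoint, TOP2A, the topoisomerase that untangles sister chromatids, and MKI67, the Ki-67 protein that coats mitotic chromosomes and marks cycling cells. They are 7.5% of the genes, where 11% of all genes were called in either direction, 5.48% lower and 5.53% higher. At an unadjusted p under 0.05, 10 were lower (11.6% of all genes) and 2 higher (12.6%), in sum 30% of the 40 against 24.1% of all genes. Replicate numbers pair the arrays within a line, and a fit with the replicate number as a block called 12 genes lower (16.9% of all genes) and 3 higher (18.6%), in sum 37.5% of the 40 against 35.5% of all genes. By direction, 25% of the 40 were lower and 5% higher at the unadjusted p, and 30% were lower and 7.5% higher with the block, so in both counts the share lower was above that of all genes and the share higher below it.

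In 22Rv1-DR cells 1 of the 40 genes rose and 0 fell relative to 22Rv1 cells. The gene was AURKB, the Aurora B kinase that corrects wrong attachments of kinetochores. The share is 2.5%, where 5.56% of all genes were called in either direction, 3.13% higher and 2.43% lower. At an unadjusted p under 0.05 AURKB was still the only gene, 1 higher and 0 lower, where 9.27% of all genes were higher and 6.94% lower (16.2% in sum). With the replicate block 2 genes were called, AURKB higher (12.6% of all genes) and ZW10 lower (9.5% of all genes), in sum 5% of the 40 against 22.1% of all genes.

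**Figure D1:**
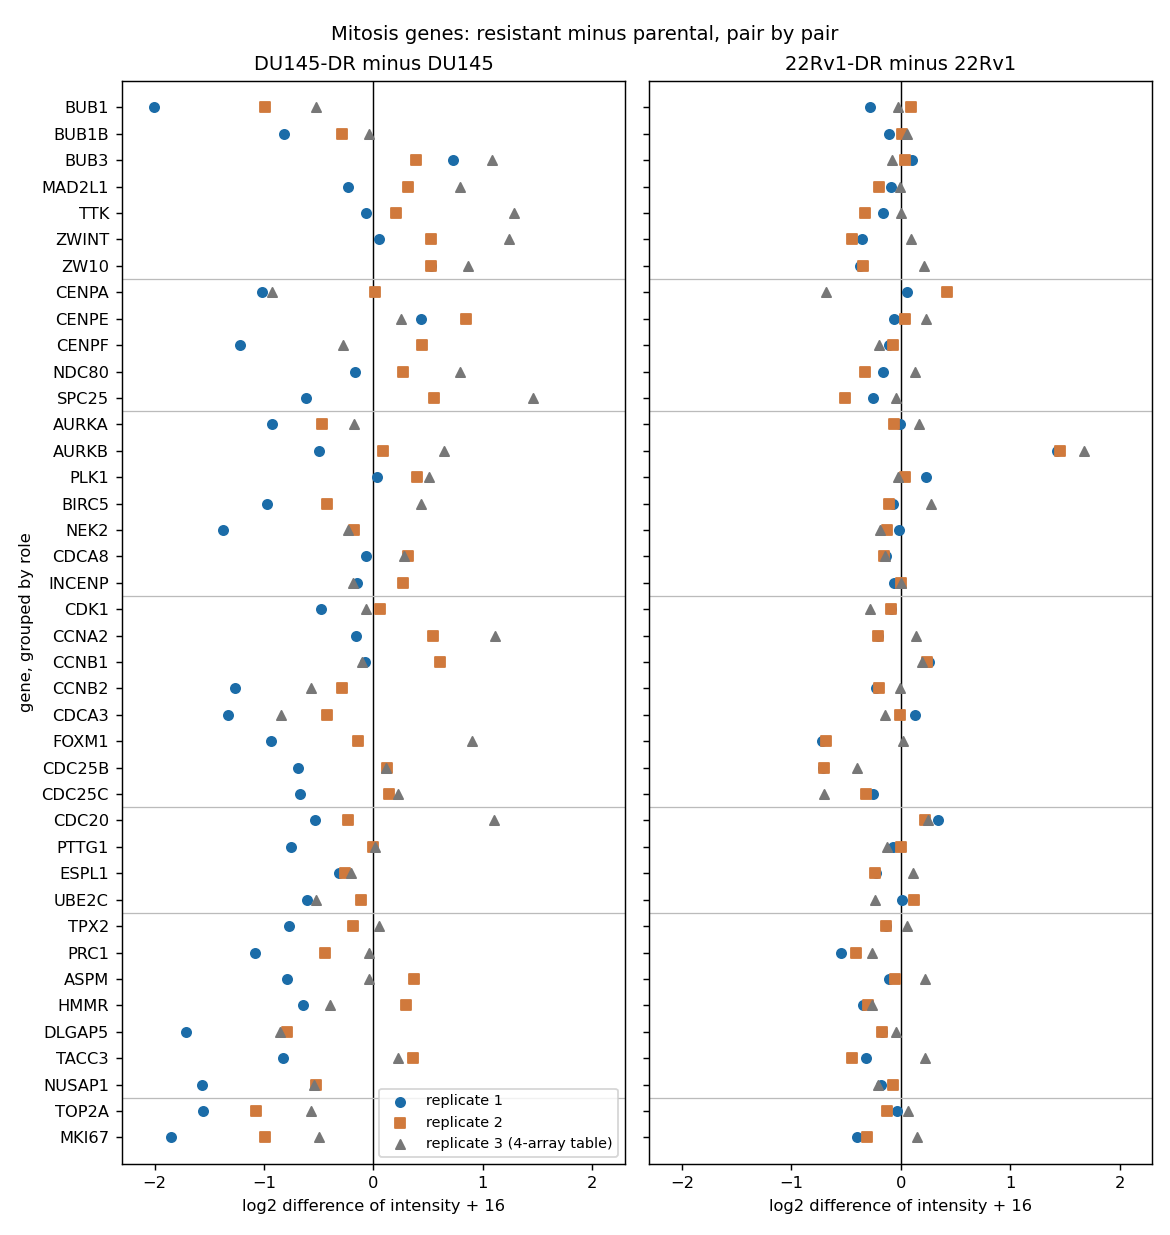
Difference in log2 (intensity + 16) of each of the 40 mitosis genes for DU145-DR minus DU145 (left) and 22Rv1-DR minus 22Rv1 (right). Each row is a gene, grouped by role with grey lines between roles, and each point is 1 pair of arrays with the same replicate number. In DU145 cells the replicate 1 points lie left of 0 for 35 of 40 genes, and in 22Rv1 cells AURKB alone lies beyond 1 log2, in all 3 pairs.

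The list as a whole was lower in 1 of the 3 DU145 pairs. On replicate 1 the median of the 40 genes was -0.68 log2 (-0.05 over all genes), with 35 lower in DU145-DR (54.8% of all genes were lower). On replicate 2 it was 0.07 (0.03 over all genes), with 17 lower (45.8% of all genes) and 22 higher (53%). On replicate 3 it was -0.01 (-0.01 over all genes), with 20 lower (50.1% of all genes) and 20 higher (49.2%). By the probe set that represents each gene, 11 genes were at least 1 log2 lower in DU145-DR on replicate 1 (27.5%, against 5.66% of all genes). On replicate 2 it was 1 gene, TOP2A (4.6% of all genes), and on replicate 3 it was 0 (9.16%). On replicate 3 BUB3, TTK, CCNA2, CDC20, SPC25 and ZWINT were at least 1 log2 higher, 15% of the genes against 9.41% of all. Other probe sets also passed 1 log2 there. They were lower for TOP2A and NEK2 (-1.47 and -1.06) and higher for BUB3 (1.14) and MKI67 (1.33 and 1.06). Without DU145-DR replicate 1 the fitted median of the list was 0.20, and without DU145-DR replicate 2 it was -0.91, against -0.29 with all 8 arrays. The count of genes called was 3 without DU145-DR replicate 1 (BUB1 and TOP2A lower, CENPE higher, where 10.4% of all genes were called), and without DU145-DR replicate 2 it was 20, all of them lower (14.5% of all genes were called).

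In 22Rv1 cells the differences by the representative probe sets were small in every pair, AURKB aside. The medians of the 40 genes were -0.12, -0.13 and -0.0050 log2 on replicates 1, 2 and 3, against 0.02, 0.00 and 0.04 over all genes. Lower in 22Rv1-DR were 32, 28 and 20 of the 40 genes, where 46.5%, 46.2% and 43.7% of all genes were lower. By the probe set that represents each gene, AURKB was the only one that differed by 1 log2 in a 22Rv1 pair, and it was higher by that much in all 3, as were 3.4%, 3.17% and 2.8% of all genes. Other tested probe sets were lower by over 1 log2. On replicates 1 and 2, MKI67 had -1.26 and -1.11 by 1 probe set and -1.12 and -1.28 by another. NEK2 had -1.12 on replicate 3.

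**Figure D2:**
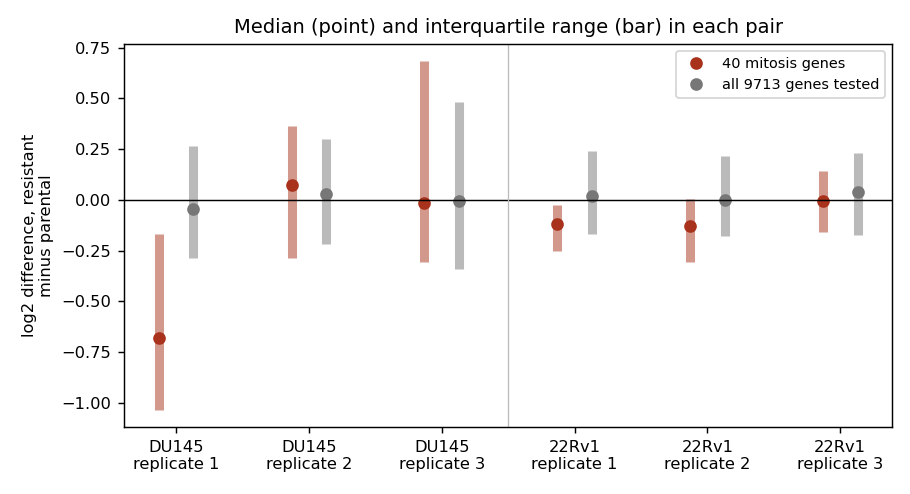
Median (point) and interquartile range (bar) of the log2 difference, resistant minus parental, of the 40 mitosis genes (red) and of all 9713 genes tested (grey) in each pair of arrays. The mitosis genes lie at -0.68 in the DU145 replicate 1 pair and between -0.13 and 0.07 in the other 5 pairs.

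Of the 7 checkpoint genes, BUB1 fell in DU145-DR and 6 did not pass the test. Over all genes 5.48% fell and 5.53% rose there. BUB1 had 391 and 861 in DU145-DR cells, against 1618 and 1722 in DU145 cells, and 320 against 468 on the replicate 3 arrays. Both DU145-DR arrays lay below both DU145 arrays, the replicate 1 array farthest, and the log2 difference was -1.50 ± 0.34 (SE, n = 2 arrays per group, limma adjusted p = 0.0257). The call rests on this probe set. Other tested probe sets of BUB1 were dim, at 62.7 to 135 on the DU145-DR and DU145 arrays of the 8. Their fitted differences were -0.33 and -0.19 (limma adjusted p = 0.590 and 0.678 when every probe set was fitted on its own). BUB1 also had the largest fall of the 40 genes in the replicate 1 pair, -2.01, against -0.99 and -0.53 in the pairs of replicates 2 and 3. Leaving out either DU145 array ended the call (adjusted p = 0.117 without replicate 1 and 0.128 without replicate 2). In 22Rv1 cells the groups overlapped, with 375 and 350 in 22Rv1-DR cells, against 458 and 326 in 22Rv1 cells, and 568 against 580 on replicate 3 (-0.09 ± 0.34, adjusted p = 1).

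BUB3 and ZW10 were higher in DU145-DR in all 3 pairs. BUB3 is the partner that carries BUB1 and BUBR1 to kinetochores, and ZW10 belongs to the complex that brings dynein and MAD proteins there. BUB3 had 8964 and 9810 in DU145-DR cells, against 5405 and 7486 in DU145 cells, and 6841 against 3214 on replicate 3. The groups did not overlap (0.56 ± 0.21), and the adjusted p was 0.138 without and 0.0163 with the replicate block. ZW10 had 1261 and 1448 in DU145-DR cells, against 873 and 1003 in DU145 cells, and 635 against 343 on replicate 3. Its groups did not overlap either (0.52 ± 0.20), with adjusted p = 0.156 without and 0.00835 with the block. A fit of all 12 arrays with the table as a block also called both genes higher in DU145-DR (2 of 40, against 11.5% of all genes). The same fit called BUB1, TOP2A, MKI67, CDCA3 and DLGAP5 lower (5 of 40, against 10% of all genes), which makes 7 against 21.5% in either direction.

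In 22Rv1 cells neither gene passed the test without the block. BUB3 had 2721 and 2487 in 22Rv1-DR cells, against 2539 and 2419 in 22Rv1 cells, and 3666 against 3875 on replicate 3 (0.07 ± 0.21, adjusted p = 1). Of its other probe sets, 2 were higher in 22Rv1-DR in both pairs of the 8 arrays (fitted differences 0.27 and 0.39) and 1 was lower (-0.12). The change of BUB3 in 22Rv1 minus that in DU145 was -0.49 ± 0.29 and did not pass (adjusted p = 0.420 without and 0.0702 with the block). ZW10 had 278 and 229 in 22Rv1-DR cells, against 365 and 296 in 22Rv1 cells, so it was lower without overlap (-0.36 ± 0.20, adjusted p = 0.485 without and 0.0366 with the block). On replicate 3 it was higher, at 474 against 407. The change of ZW10 in 22Rv1 minus that in DU145 was -0.88 ± 0.29 (adjusted p = 0.110 without and 0.00599 with the block).

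BUB1B, the gene of the checkpoint protein BUBR1, had 1448 and 2876 in DU145-DR cells, against 2557 and 3517 in DU145 cells, and 1399 against 1438 on replicate 3. The groups overlapped, and -0.55 ± 0.32 had an adjusted p of 0.351 without and 0.0352 with the block. In 22Rv1 it had 1389 and 1563 in 22Rv1-DR cells, against 1499 and 1552 in 22Rv1 cells, and 2304 against 2210 on replicate 3, which is nearly level (-0.05 ± 0.32, adjusted p = 1). MAD2L1, the MAD2 gene, had 2436 and 5753 in DU145-DR cells, against 2856 and 4608 in DU145 cells, and 1574 against 904 on replicate 3. Its replicates spread more than its groups, and the 95% interval of the difference (0.05 log2) ran from -0.84 to 0.93. Further MAD2L1 probe sets, on the larger array alone, went opposite ways. They had 343 in DU145-DR against 465 in DU145 cells, and 130 against 98.4. TTK, the MPS1 kinase that starts checkpoint signalling, had 855 and 1458 in DU145-DR cells, against 898 and 1261 in DU145 cells, and 719 against 286 on replicate 3. Its fitted difference was 0.07 ± 0.30 (adjusted p = 0.975), and it was clearly higher in DU145-DR on replicate 3 alone. In 22Rv1 MAD2L1 had 1808 and 1510 in 22Rv1-DR cells, against 1924 and 1734 in 22Rv1 cells, and 2336 against 2353 on replicate 3. Its further probe sets were lower on replicate 3, at 714 in 22Rv1-DR against 1235 in 22Rv1 cells and 148 against 181. TTK in 22Rv1 had 383 and 290 in 22Rv1-DR cells, against 431 and 367 in 22Rv1 cells, and 383 against 383 on replicate 3. The groups of both genes overlapped, and neither passed the test (adjusted p = 1 and 0.902).

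ZWINT, a kinetochore protein that binds the ZW10 complex, was higher in DU145-DR in all 3 pairs without passing the test. It had 3236 and 6252 in DU145-DR cells, against 3126 and 4330 in DU145 cells, and 3397 against 1428 on replicate 3 (0.29 ± 0.31, adjusted p = 0.705). The groups overlapped on the 8 arrays. In 22Rv1 it had 2721 and 2574 in 22Rv1-DR cells, against 3492 and 3517 in 22Rv1 cells, and 4390 against 4124 on replicate 3 (-0.40 ± 0.31, adjusted p = 0.685). Its change in 22Rv1 minus that in DU145 was -0.69 ± 0.43, with adjusted p = 0.447 without and 0.0449 with the block.

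Of the 6 kinetochore and centromere genes, 5 were tested and 0 passed in either line, also at an unadjusted p under 0.05. Over all genes 11% passed in DU145 and 5.56% in 22Rv1, and 24.1% and 16.2% at the unadjusted p. With 5 genes, a count of 0 cannot be told from these shares. CENPE, the kinesin motor that carries chromosomes to the spindle equator, had 609 and 1082 in DU145-DR cells, against 446 and 596 in DU145 cells, and 534 against 446 on replicate 3. Both DU145-DR arrays lay above both DU145 arrays (0.64 ± 0.30), with adjusted p = 0.234 without and 0.0143 with the block. In 22Rv1 it had 355 and 452 in 22Rv1-DR cells, against 370 and 440 in 22Rv1 cells, and 592 against 501 on replicate 3, so the groups overlapped (-0.0094 ± 0.30, adjusted p = 1). The other 4 were the centromere histone CENPA (-0.50 in DU145, 0.24 in 22Rv1), the kinetochore protein CENPF (-0.39 and -0.09), and the NDC80 complex members NDC80 (0.05 and -0.24) and SPC25 (-0.03 and -0.38). SPC25 showed how far replicates could differ, at 220 and 838 in DU145-DR cells, against 345 and 564 in DU145 cells. NUF2, also of the NDC80 complex, was measured on replicate 3 alone, at 572 in DU145-DR against 443 in DU145 cells and at 1607 in 22Rv1-DR against 1380 in 22Rv1 cells.

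Among the 7 mitotic kinases and chromosomal passengers, AURKB rose in 22Rv1-DR and 0 passed in DU145-DR, where AURKA and BIRC5 were lower at an unadjusted p under 0.05. Over all genes 3.13% rose in 22Rv1-DR, 11% passed in DU145-DR, and 11.6% were lower there at the unadjusted p. AURKB had 1618 and 1510 in 22Rv1-DR cells, against 592 and 541 in 22Rv1 cells, and 1209 against 367 on the replicate 3 arrays. The 22Rv1-DR arrays were the highest in every pair, with differences of 1.43, 1.45 and 1.68 log2, and the fitted difference was 1.44 ± 0.26 log2 (2.71-fold, limma adjusted p = 0.0136). The call was lost without any 1 of the 4 arrays of this line, with adjusted p from 0.0801 to 0.109 and a difference from 1.38 to 1.50 log2. In the fit of 12 arrays the difference was 1.52 (adjusted p = 0.00228, 1 of 40 genes called, where 3.48% of all genes were called higher and 6.43% in either direction). A second AURKB probe set, on the larger array alone, had 195 in 22Rv1-DR against 76.6 in 22Rv1 cells.

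In DU145 cells AURKB had 508 and 879 in DU145-DR cells, against 724 and 826 in DU145 cells, and 541 against 340 on replicate 3. The groups overlapped (-0.20 ± 0.26, 95% interval from -0.80 to 0.39, adjusted p = 0.776). The change in 22Rv1 minus that in DU145 was 1.64 ± 0.37 log2 (adjusted p = 0.0303), the only 1 of the 40 genes whose change differed between the lines in this fit, where 8% of all genes differed and 4.48% did so with a positive sign. At an unadjusted p under 0.05 the difference was found for 5 genes (AURKB, BUB1, CDC20 and TOP2A with a positive sign, as 11.5% of all genes, and ZW10 with a negative one, as 9.96%, in sum 21.5%). With the replicate block it was found for 10 genes (25%, against 31.7% of all genes). These 10 were AURKA, AURKB, BUB1, CDC20, TOP2A, MKI67 and DLGAP5 with a positive sign (16.6% of all genes), and CENPE, ZWINT and ZW10 with a negative one (15.1%).

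BIRC5, CDCA8 and INCENP, the partners of Aurora B in the chromosomal passenger complex, did not pass the test in 22Rv1-DR. BIRC5, which is survivin, had 1152 and 1105 in 22Rv1-DR cells, against 1209 and 1193 in 22Rv1 cells, and 1710 against 1409 on replicate 3 (-0.09 ± 0.29, adjusted p = 1). Its other tested probe sets had fitted differences of -0.50 and -0.11. The differences of CDCA8 (borealin) and INCENP, the scaffold of the complex, were -0.14 ± 0.21 and -0.03 ± 0.23, with 95% intervals from -0.63 to 0.35 and from -0.55 to 0.49. INCENP was dim on the 22Rv1 arrays, with 34.8 and 27.9 in 22Rv1-DR cells, against 37.0 and 27.9 in 22Rv1 cells. These lie under the filter's intensity of 74.0, and INCENP was kept through its level on the DU145-DR and DU145 arrays.

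In DU145-DR, BIRC5 had 1458 and 2702, against 2876 and 3641 in DU145 cells, and 1596 against 1176 on replicate 3. It was lower without overlap on the 8 arrays (-0.70 ± 0.29, adjusted p = 0.172 without and 0.0179 with the block) and higher on replicate 3. AURKA, the Aurora A kinase of the spindle poles, had 1722 and 3236 in DU145-DR cells, against 3281 and 4482 in DU145 cells, and 1351 against 1531 on replicate 3. It was lower in all 3 pairs (-0.70 ± 0.30, adjusted p = 0.196 without and 0.0131 with the block). In 22Rv1 its groups overlapped, with 809 and 760 in 22Rv1-DR cells, against 815 and 792 in 22Rv1 cells, and 1361 against 1209 on replicate 3 (-0.03 ± 0.30, adjusted p = 1). PLK1, the polo-like kinase of mitotic entry and exit, was below the median of the DU145-DR and DU145 arrays of the 8-array table and above that of the replicate 3 arrays. It had 127 and 152 in DU145-DR cells, against 124 and 111 in DU145 cells, and 69.1 against 43.7 on replicate 3 (0.22 ± 0.22, adjusted p = 0.672). It had 85.6 and 59.3 in 22Rv1-DR cells, against 70.5 and 57.3 in 22Rv1 cells, and 66.7 against 68.1 on replicate 3 (0.14 ± 0.22, adjusted p = 0.977). Its mean log2 value in 22Rv1-DR and in 22Rv1 lay under the filter, so PLK1, like INCENP, was kept through the DU145-DR and DU145 arrays. NEK2, a kinase of the centrosome, differed by -0.78 ± 0.46 in DU145 and -0.07 ± 0.46 in 22Rv1, and did not pass in either line. On replicate 3 another probe set of NEK2 had -1.06 in DU145 and -1.12 in 22Rv1.

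**Figure D3:**
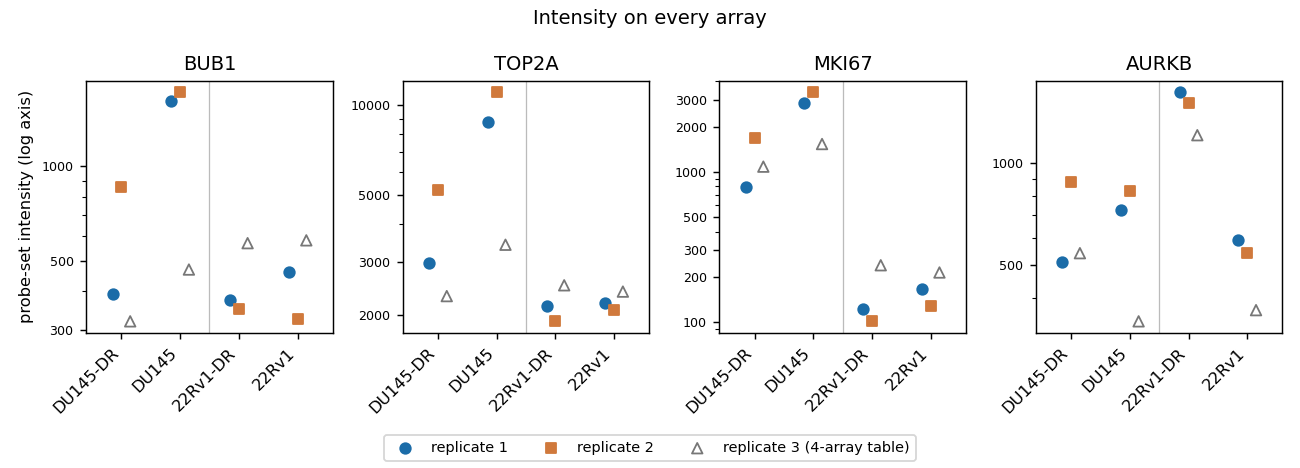
Probe-set intensity of BUB1, TOP2A, MKI67 and AURKB on each of the 12 arrays (log axis), with the resistant group left of its parental group. BUB1, TOP2A and MKI67 are lower in DU145-DR than in DU145 cells in each of the 3 replicates, and AURKB is higher in 22Rv1-DR than in 22Rv1 cells in each.

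None of the 8 genes of mitotic entry passed the test in either line, so 0 rose and 0 fell, where 5.53% of all genes rose and 5.48% fell in DU145-DR, and 3.13% rose and 2.43% fell in 22Rv1-DR. At an unadjusted p under 0.05 they included CCNB2 and CDCA3 in DU145 and 0 in 22Rv1. The B cyclins activate CDK1. CCNB2 had 1652 and 3566 in DU145-DR cells, against 3984 and 4360 in DU145 cells, and 1389 against 2077 on replicate 3, lower in all 3 pairs (-0.78 ± 0.32, adjusted p = 0.176 without and 0.0489 with the block). CCNB1 had 1710 and 3566 in DU145-DR cells, against 1808 and 2336 in DU145 cells, and 1531 against 1652 on replicate 3, with overlapping groups (0.26 ± 0.32, adjusted p = 0.762). In 22Rv1 CCNB2 had 1489 and 1552 in 22Rv1-DR cells, against 1746 and 1783 in 22Rv1 cells, and 2385 against 2402 on replicate 3. CCNB1 had 2077 and 1898 in 22Rv1-DR cells, against 1734 and 1607 in 22Rv1 cells, and 2665 against 2320 on replicate 3. CCNB2 was thus lower and CCNB1 higher in all 3 pairs of 22Rv1, both by little (-0.21 ± 0.32 and 0.25 ± 0.32, adjusted p = 0.959 and 0.923).

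CDK1, the kinase that drives entry into mitosis, had 4973 and 8364 in DU145-DR cells, against 6937 and 8023 in DU145 cells, and 2978 against 3126 on replicate 3. In 22Rv1 it had 3350 and 3126 in 22Rv1-DR cells, against 3566 and 3327 in 22Rv1 cells, and 3541 against 4300 on replicate 3. The groups overlapped in both lines (-0.21 ± 0.26 and -0.09 ± 0.26, adjusted p = 0.762 and 1). Other tested probe sets of CDK1 were lower by more on replicate 3. They had 760 in DU145-DR against 1458 in DU145 cells (-0.926), and 942 against 1898 (-0.998). In 22Rv1 their differences there were -0.691 and -0.544, against -0.279 for the probe set above. The first is of a type prone to cross-hybridization by its name. On the 8 arrays their fitted differences in DU145 were -0.337 and -0.298, and neither passed. CCNA2, cyclin A2, had 1342 and 2702 in DU145-DR cells, against 1499 and 1846 in DU145 cells, and 1541 against 704 on replicate 3. In 22Rv1 it had 1053 and 1067 in 22Rv1-DR cells, against 1218 and 1235 in 22Rv1 cells, and 1641 against 1489 on replicate 3. Its differences on the 8 arrays were 0.19 ± 0.30 and -0.21 ± 0.30 (adjusted p = 0.843 and 0.958), with replicate 3 of DU145-DR well above its DU145 partner.

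FOXM1, the transcription factor of late cell cycle genes, and CDC25B, a phosphatase that activates CDK1, had the lowest differences of the 40 genes in 22Rv1. The FOXM1 probe set is of a type prone to cross-hybridization by its name. FOXM1 had 560 and 519 in 22Rv1-DR cells, against 936 and 843 in 22Rv1 cells, and 1075 against 1060 on replicate 3. It was lower without overlap on the 8 arrays (-0.70 ± 0.43, adjusted p = 0.541) and level on replicate 3. CDC25B differed by -0.71 ± 0.36 (adjusted p = 0.409), with 545 and 541 in 22Rv1-DR cells, against 904 and 891 in 22Rv1 cells, and 704 against 936 on replicate 3. A fit of only the 4 arrays of this line called both lower, beside AURKB higher. In DU145 FOXM1 had 251 and 724 in DU145-DR cells, against 495 and 798 in DU145 cells, and 609 against 320 on replicate 3, with overlap (-0.54 ± 0.43, adjusted p = 0.552). CDCA3, which targets an inhibitor of mitotic entry for degradation, had 375 and 798 in DU145-DR cells, against 969 and 1075 in DU145 cells, and 298 against 549 on replicate 3. It was lower in all 3 pairs (-0.88 ± 0.31, adjusted p = 0.121 without and 0.0298 with the block). In 22Rv1 CDCA3 had 560 and 488 in 22Rv1-DR cells, against 512 and 491 in 22Rv1 cells, and 714 against 792 on replicate 3, and the groups overlapped (0.06 ± 0.31, adjusted p = 1). CDC25C, a phosphatase of the same family as CDC25B, differed by -0.26 and -0.28 in DU145 and 22Rv1, and its probe sets disagreed in sign in both lines.

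None of the 4 anaphase genes passed either. At an unadjusted p under 0.05 there were 0 in either line. Over all genes 11% passed in DU145 and 5.56% in 22Rv1, and 24.1% and 16.2% at the unadjusted p. CDC20, the target of the spindle checkpoint, went opposite ways on the array types in DU145. It had 568 and 685 in DU145-DR cells, against 832 and 809 in DU145 cells, and on replicate 3 it had 3717 against 1722. It was lower without overlap on the 8 arrays (-0.39 ± 0.18, adjusted p = 0.248 without and 0.0445 with the block) and higher by 1.10 log2 on replicate 3, so that the fit of 12 arrays gave 0.11 (adjusted p = 0.852). In 22Rv1 it was higher in all 3 pairs, with 465 and 478 in 22Rv1-DR cells, against 365 and 407 in 22Rv1 cells, and 2740 against 2304 on replicate 3 (0.28 ± 0.18, adjusted p = 0.594). PTTG1 (securin), ESPL1 (separase, which cuts cohesin) and UBE2C, the ubiquitin-conjugating enzyme of the anaphase-promoting complex, differed by -0.38, -0.29 and -0.36 in DU145 and by -0.03, -0.23 and 0.06 in 22Rv1.

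Of the 8 spindle and midzone genes, 7 were tested and 0 passed in either line, while DLGAP5, NUSAP1 and PRC1 were lower in all 3 DU145 pairs, at an unadjusted p under 0.05, and were called with the block. Over all genes 11% passed in DU145 and 5.56% in 22Rv1. Lower in DU145-DR were 28.9% of all genes in all 3 pairs, 11.6% at the unadjusted p and 16.9% with the block. DLGAP5, or HURP, stabilises the spindle fibres near chromosomes, NUSAP1 bundles microtubules around them, and PRC1 crosslinks the midzone. DLGAP5 had 904 and 2226 in DU145-DR cells, against 2998 and 3848 in DU145 cells, and 666 against 1218 on replicate 3. It was the nearest to the threshold of the genes that missed it (-1.25 ± 0.37, adjusted p = 0.0663 without and 0.0105 with the block). NUSAP1 had 2336 and 6039 in DU145-DR cells, against 6937 and 8719 in DU145 cells, and 2320 against 3397 on replicate 3 (-1.05 ± 0.38, adjusted p = 0.130 without and 0.0242 with the block). PRC1 had 1924 and 3769 in DU145-DR cells, against 4096 and 5113 in DU145 cells, and 1859 against 1911 on replicate 3 (-0.76 ± 0.30, adjusted p = 0.161 without and 0.0207 with the block). The DU145-DR arrays of all 3 genes lay below both DU145 arrays, with replicate 1 the lower.

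In 22Rv1 the same 3 genes were lower by less. DLGAP5 had 446 and 449 in 22Rv1-DR cells, against 505 and 508 in 22Rv1 cells, and 588 against 605 on replicate 3 (-0.17 ± 0.37, adjusted p = 1). NUSAP1 had 2665 and 2592 in 22Rv1-DR cells, against 3019 and 2721 in 22Rv1 cells, and 2684 against 3104 on replicate 3 (-0.12 ± 0.38, adjusted p = 1). PRC1 had 1520 and 1698 in 22Rv1-DR cells, against 2226 and 2257 in 22Rv1 cells, and 2452 against 2937 on replicate 3 (-0.48 ± 0.30, adjusted p = 0.564). They are among 19 of the 40 genes whose 22Rv1-DR arrays both lay below both 22Rv1 arrays of the 8 (47.5%, against 24% of all genes), while 4 lay above (28.4% of all genes). In DU145 the groups did not overlap for 12 genes lower and 4 higher, against 19.9% and 22.1% of all genes.

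The other 4 tested spindle genes were the Aurora A activator TPX2 (-0.48 in DU145, -0.14 in 22Rv1), the spindle pole protein ASPM (-0.21 and -0.08), the hyaluronan receptor and spindle protein HMMR (-0.17 and -0.32) and TACC3, which stabilises spindle fibres (-0.23 and -0.38). HMMR had the widest standard error of the 40 genes, 0.54. ANLN, the anillin of the cleavage furrow, was measured on replicate 3 alone by a pair of probe sets, whose differences were 0.64 and -0.12 in DU145 and 0.05 and -0.36 in 22Rv1.

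Both genes of mitotic chromosomes, TOP2A and MKI67, fell in DU145-DR, where 5.48% of all genes fell. TOP2A had 2978 and 5221 in DU145-DR cells, against 8780 and 11036 in DU145 cells, and 2304 against 3421 on the replicate 3 arrays. It was lower in all 3 pairs without overlap on the 8 arrays (-1.32 ± 0.27, 2.49-fold, adjusted p = 0.0186), and its pair differences were -1.55, -1.08 and -0.57. A second probe set of TOP2A had -1.68, -1.07 and -1.47 in the 3 pairs, with a fitted difference of -1.37 (adjusted p = 0.0219 when every probe set was fitted on its own). The call ended when either DU145 array was left out (adjusted p = 0.0612 and 0.114). In 22Rv1 TOP2A had 2135 and 1898 in 22Rv1-DR cells, against 2180 and 2077 in 22Rv1 cells, and 2504 against 2385 on replicate 3, with overlap (-0.08 ± 0.27, adjusted p = 1).

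MKI67 had 787 and 1687 in DU145-DR cells, against 2876 and 3373 in DU145 cells, and 1082 against 1531 on replicate 3. This probe set was lower in all 3 pairs (-1.42 ± 0.33, 2.68-fold, adjusted p = 0.0293). Each of 4 arrays ended the call when left out: replicate 1 or 2 of DU145 (adjusted p = 0.109 and 0.155), replicate 1 of DU145-DR (0.0566) and replicate 1 of 22Rv1-DR (0.0501). In 22Rv1 it had 123 and 101 in 22Rv1-DR cells, against 167 and 129 in 22Rv1 cells, and 239 against 214 on replicate 3 (-0.35 ± 0.33, adjusted p = 0.801).

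The 4 probe sets of MKI67 did not give 1 answer. In DU145 their fitted differences were -1.42, -0.74, -0.17 and 0.08, and on replicate 3 the last pair of them were higher in DU145-DR by 1.33 and 1.06. In 22Rv1 the same last pair had the largest differences, -1.19 and -1.20 (adjusted p = 0.0527 and 0.0994). With probe sets averaged per gene, MKI67 and BUB1 were no longer called, and TOP2A was the only gene that passed in DU145. Over the 14 genes with several tested probe sets, all had 1 sign for 12 in DU145, where MKI67 and CDC25C disagreed, and for 12 in 22Rv1, where BUB3 and CDC25C did. All 4 probe sets of BUB3 were higher in DU145-DR in all 3 pairs. A further probe set of BIRC5, of a type prone to cross-hybridization by its name, was lower in all 3 DU145 pairs (-0.99, adjusted p = 0.0265), while the remaining tested probe set of BIRC5 had -0.93, 0.21 and 0.45 in the pairs (-0.36, adjusted p = 0.714).

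**Figure D4:**
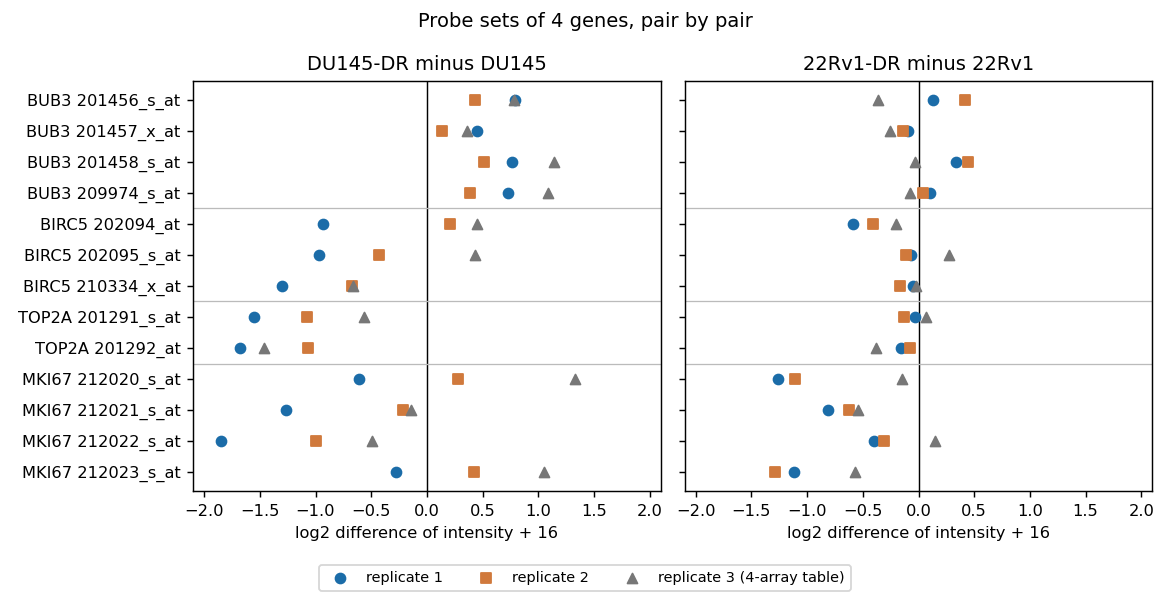
Log2 difference, resistant minus parental, of each tested probe set of BUB3, BIRC5, TOP2A and MKI67 (rows) in each pair of arrays, DU145-DR minus DU145 on the left and 22Rv1-DR minus 22Rv1 on the right. The probe sets of BUB3 and of TOP2A lie on 1 side of 0 in the left panel, while those of MKI67 run from -1.85 to 1.33.

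Taking the pairs together, 13 genes were lower and 5 higher in DU145-DR in 3 of 3 pairs, against 28.9% and 28.7% of all genes. The 13 were AURKA, BUB1, BUB1B, CCNB2, TOP2A, MKI67, ESPL1, NEK2, CDCA3, UBE2C, PRC1, DLGAP5 and NUSAP1, and the 5 were BUB3, PLK1, CENPE, ZWINT and ZW10. As shares of the 40 these are 32.5% and 12.5%. In 22Rv1, 13 genes were lower in 3 of 3 pairs (22.3% of all genes) and 3 higher, AURKB, CCNB1 and CDC20 (27.5% of all genes).

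**Figure D5:**
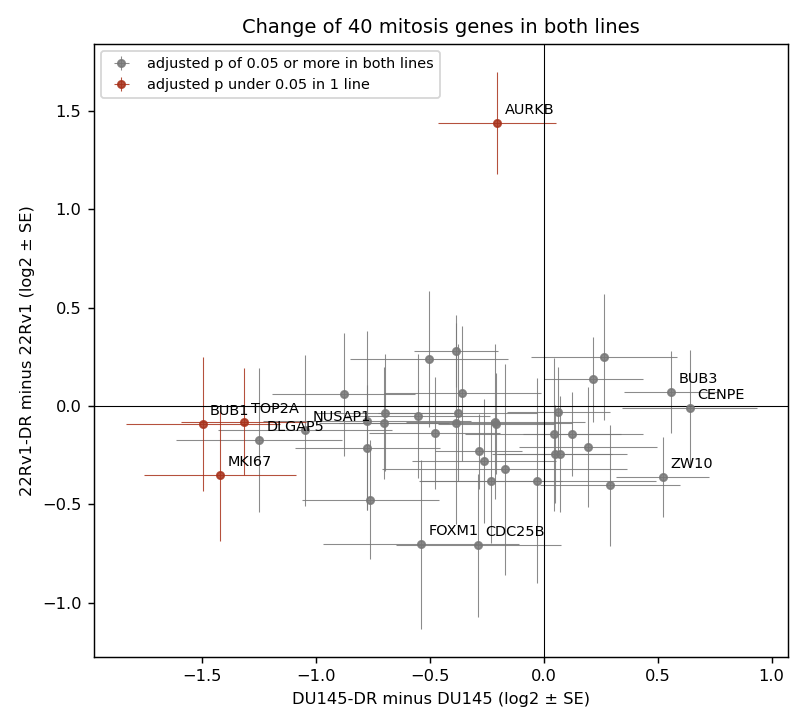
Fitted log2 difference of each of the 40 mitosis genes in DU145 (x axis) and 22Rv1 (y axis), resistant minus parental, with bars of 1 standard error. Red points passed the test in 1 line. BUB1, TOP2A and MKI67 lie left of -1.3 on the x axis and at -0.09, -0.08 and -0.35 on the y axis, and AURKB lies at 1.44 on the y axis.

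Of 139 other genes of mitosis in 5 lists, 97 were tested, and 5 rose and 5 fell in DU145-DR (10.3%, against 11% of all genes), while 2 rose and 2 fell in 22Rv1-DR (4.12%, against 5.56%). By direction, 5.53% of all genes rose and 5.48% fell in DU145-DR, and 3.13% rose and 2.43% fell in 22Rv1-DR. These are the shares to set beside the count of each list below, and the lists are small. At the kinetochore, 1 of 22 tested genes rose and 2 fell in DU145-DR. SPDL1 (Spindly), which recruits dynein to kinetochores with the ZW10 complex, rose by 2.06 ± 0.23 log2 (adjusted p = 0.000949) and was higher by 2.42 on replicate 3. KNTC1 (ROD), the partner of ZW10 in that complex, and MIS18A, which helps to load CENPA, fell by 1.09 and 0.90 log2 (adjusted p = 0.00751 and 0.0366) and were higher on replicate 3, by 0.63 and 0.73. In 22Rv1-DR TRIP13, the ATPase that remodels MAD2, fell by 1.01 log2 (adjusted p = 0.0169), 0 of the 22 rose, and its difference on replicate 3 was 0.0099. At an unadjusted p under 0.05 the kinetochore list had 0 higher and 6 lower there, where 9.27% of all genes were higher and 6.94% lower.

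Of 17 condensin and cohesin genes, STAG1, a cohesin subunit, rose in DU145-DR by 1.29 (adjusted p = 0.0319) and NCAPD2, a condensin subunit, fell by 1.66 (adjusted p = 0.0134). Both kept their direction on replicate 3 (1.37 and -1.50), and 0 of the 17 passed in 22Rv1, with 0 at an unadjusted p under 0.05. Of 11 genes of the anaphase-promoting complex, its regulators and its partner enzymes, CDC16 rose in DU145-DR (0.75, adjusted p = 0.0455, and 0.48 on replicate 3). In 22Rv1 0 of these 11 passed, with 1 higher and 0 lower at an unadjusted p under 0.05. Of 19 other genes of mitotic entry and exit, LIN37, a MuvB subunit, rose in DU145-DR (1.16, adjusted p = 0.0317, and 1.17 on replicate 3). In 22Rv1-DR the polo-like kinase PLK2 rose (1.12, adjusted p = 0.0475, and 2.39 on replicate 3), the phosphatase CDC14B rose (1.59, adjusted p = 0.0149, but 0.09 on replicate 3), and PKMYT1, an inhibitory kinase of CDK1, fell by 1.18 (adjusted p = 0.00686, and -0.11 on replicate 3). Of 28 other spindle and cytokinesis genes, the kinase NEK7 rose in DU145-DR (1.01, adjusted p = 0.0175, and 0.33 on replicate 3). The spindle protein SPAG5 fell by 1.11 (adjusted p = 0.0273, but -0.11 on replicate 3). HAUS6, of the augmin complex, fell by 1.26 (adjusted p = 0.0281) but was higher on replicate 3 by 0.91. In 22Rv1 0 of these 28 passed, with 1 higher and 1 lower at an unadjusted p under 0.05. With the replicate block the 97 genes had 20 calls higher and 17 lower in DU145 (38.1%, against 35.5% of all genes) and 6 higher and 15 lower in 22Rv1 (21.6%, against 22.1%).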

How the data were processed

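RNA from 12 samples of 4 groups was measured on Affymetrix arrays. The deposited tables hold the intensity of each probe set, not on a log scale, 1 table for replicates 1 and 2 (8 arrays) and 1 for replicate 3 (4 arrays). The submitters' processing notes name MAS5 and RMA. The sources used here do not give which step each served or its version. Precision is limited by how few arrays there are.

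Probe sets with 1 gene symbol in the annotation supplied for each array type were used (19033 and 41032 probe sets). For each gene the probe set of highest mean log2 value was taken, leaving out those whose name marks them as prone to cross-hybridization unless a gene had no other, which held for CENPA, PTTG1 and FOXM1. Log2 of the intensity plus 16 was taken, and a gene was kept if its mean in some group was above the 40th percentile of the table (intensity 74.0). The model, lmFit and eBayes without a trend (limma 3.58.1, R 4.3.3), took the 8 arrays with 4 groups, no block, and 4 residual and 4.47 prior degrees of freedom. The contrasts were resistant minus parental in each line and the difference between the lines, two-sided, with Benjamini-Hochberg adjustment over 9713 genes and a threshold of 0.05. Replicate 3 pairs gave differences with no test, and entered only the fit of 12 arrays.

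Replicate numbers were checked for pairing. Deviations of same-numbered parental and resistant arrays from their group means correlated across genes at 0.693 in DU145 and 0.792 in 22Rv1 on the 8 arrays, against 0.0688 to 0.123 across lines. Over 12 arrays the pairs had 0.703, 0.532 and 0.539 in DU145 and 0.607, 0.603 and 0.469 in 22Rv1, values that include the offset between array types. The numbers were therefore taken to pair the samples within a line, and the fit with the replicate number as a block is given where it changes a call.

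The genes, role groups and other lists were chosen with earlier results of these data known, so no list was tested as a set. Values on every array are given for genes that passed in any contrast without or with the block, and for 17 genes fixed by name. From each other list up to 4 genes that passed are named per line. Alternatives were the block, quantile normalization, arrays shifted to 1 median, a pseudocount of 1 or 64, a 60th percentile filter or none, the mean over probe sets, each probe set on its own, an intensity trend, all 12 arrays, only the 4 arrays of a line, and leaving out each array.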

Additional observations from a re-analysis of the deposited data

Results flagged for a closer look

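AURKB stood out because its change differed between the lines in a test of the difference itself. The change in 22Rv1 cells minus the change in DU145 cells was 1.64 ± 0.37 log2 (SE, n = 2 arrays per group, limma adjusted p = 0.0303), from 1.44 in 22Rv1 and -0.20 in DU145. AURKB was higher in 22Rv1-DR in 3 of 3 pairs and higher in DU145-DR in 2 of 3. The difference kept its call without either DU145-DR array and lost it without any of the other 6 arrays (adjusted p from 0.0732 to 0.119). With the replicate block its adjusted p was 0.00551, and with 12 arrays it was 0.0155.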

How the results depend on the processing

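The 8 arrays give 2 per group, which limits each value. Against 3 genes called in DU145 (0 higher, 3 lower), the replicate block gave 15, quantile normalization 9, all 12 arrays 7, the mean over probe sets 1, and only the 4 arrays of the line 0 (limma, 4 at an unadjusted p under 0.05). Of all genes these settings called 35.5%, 18.2%, 21.5%, 10.8% and 3.01%, in that order, against 11%. Leaving out 1 array gave 0 to 20 (4.82% to 14.5% of all genes). Against 1 gene in 22Rv1, the block gave 2 (22.1% of all genes), only the 4 arrays of the line 3 (13%), and leaving out 1 array 0 to 1 (2.3% to 8.44%, against 5.56% with all arrays). Against 1 gene for the difference between lines, the block gave 10 (31.7% of all genes), quantile normalization 3 (14%) and leaving out 1 array 0 to 11 (3.39% to 12.3%, against 8%). Where leaving out an array gave 0 calls, 1 to 8 genes had an unadjusted p under 0.05. The median of the genes in DU145 (-0.29) ran from -0.91 to 0.20 with 1 array left out. The median in 22Rv1 (-0.11) was -0.14 with quantile normalization, -0.16 with arrays shifted to 1 median, -0.13 with a 60th percentile filter, -0.12 with the mean of probe sets, and from -0.17 to -0.11 with 1 array left out. Within single pairs, an alternative chosen after seeing the data, it was -0.12, -0.13 and -0.0050. CDC20 in DU145 changed sign with 12 arrays (0.11), where the replicate 3 pair alone was higher. The difference of MKI67 between lines changed sign with the mean of its probe sets (-0.30, adjusted p = 0.825), which disagree. Over the named genes, 185 of the values with 1 array left out kept their direction and side of the threshold, 13 passed it and 18 lost it, and under the other settings these were 272, 35 and 5, with the 2 sign changes above. The block changed no other call than those given.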

Other observations

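The gene next to AURKB on chromosome 17 in RefSeq's order, BORCS6, a subunit of the complex that positions lysosomes, also rose in 22Rv1-DR cells. BORCS6 had 519 and 512 in 22Rv1-DR cells, against 151 and 148 in 22Rv1 cells, and 530 against 159 on the replicate 3 arrays. All 3 pairs were higher in 22Rv1-DR (1.68 ± 0.19 log2, n = 2 arrays per group, limma adjusted p = 0.00135). In DU145 cells it had 184 and 187 in DU145-DR cells, against 191 and 146 in DU145 cells, and 125 against 125 on replicate 3. On the other side lies LINC00324, a long noncoding RNA measured on the larger array alone, with 1113 in 22Rv1-DR against 126 in 22Rv1 cells, a difference of 2.99 log2 in 1 pair with no test. It had 97.7 in DU145-DR against 61.0 in DU145 cells.

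The genes farther out did not pass in 22Rv1. CTC1 differed by 0.32 ± 0.24 (adjusted p = 0.685), VAMP2 by 0.09 ± 0.31 (adjusted p = 1), PFAS by -0.25 ± 0.24 (adjusted p = 0.818) and RANGRF by -0.69 ± 0.23 (adjusted p = 0.160). On replicate 3 their differences were 0.51, -0.03, 0.52 and 0.48, so PFAS and RANGRF went the other way there. TMEM107, measured on the larger array alone, had 657 in 22Rv1-DR against 1278 in 22Rv1 cells (-0.94). These neighbours were chosen after the value of AURKB was seen.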
